A study of Mus musculus with 4 samples.

Results

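The genes of Wnt signalling that act at the cell surface were followed in muscle progenitor cells of aged and young C57Bl/6 mice. The set took every Wnt ligand, Frizzled receptor, Sfrp and Dkk antagonist, R-spondin and Lgr4, Lgr5 and Lgr6 by gene symbol. It added Wif1, the co-receptor genes Lrp5 and Lrp6, the receptor ligase gene Znrf3 and the feedback and effector genes Axin2, Lef1, Nkd1 and Nkd2. It held 52 of the 19505 genes measured, each read by 1 probe set, and 2 further genes of the set were not analysed here. The aged group was 2 arrays from mice of 2 years and the young group 2 arrays from mice of 5 weeks, with no treatment or altered allele named for either. The progenitors were taken from collagenase-digested muscle by flow cytometry as cells carrying CD29 (integrin beta 1) and ITGA7 (integrin alpha 7). Values are deposited log2 levels of a whole-transcript microarray, and differences are aged minus young in log2 units. The labels do not say whether arrays of one age came from separate animals, so p-values here reflect the spread among the 4 arrays only, which may be technical.

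Wnt proteins are secreted, lipid-modified ligands that bind Frizzled receptors. With the co-receptors Lrp5 or Lrp6 this stabilises beta-catenin, which enters the nucleus and works with Tcf and Lef factors, while other Wnts act through polarity and calcium routes without it. Sfrp proteins and Wif1 bind the ligands and Dkk proteins bind the co-receptors. R-spondins, through Lgr receptors, keep the ligase Znrf3 from removing Frizzled proteins. In skeletal muscle, Wnt signals are known for roles in the division, differentiation and ageing of satellite cells, the resident stem cells of the tissue, and for effects on their fibroblast neighbours.

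The promoters of Wnt4, Dkk2 and Wif1 are shown because these genes are among the 5 members with the clearest differences between the ages; the other members of that group, Fzd2 and Rspo3, are named only. Each sequence is the 250 bases before the annotated start, 5′ to 3′ on the plus strand, from RefSeq (GRCm38.p6), at chr4:137277385-137277634 for Wnt4, chr3:132085042-132085291 for Dkk2 and chr10:121033754-121034003 for Wif1. Capitals mark CTTTG, the core letters of the Tcf/Lef motif, searched on both strands with no other motif searched.
Wnt4: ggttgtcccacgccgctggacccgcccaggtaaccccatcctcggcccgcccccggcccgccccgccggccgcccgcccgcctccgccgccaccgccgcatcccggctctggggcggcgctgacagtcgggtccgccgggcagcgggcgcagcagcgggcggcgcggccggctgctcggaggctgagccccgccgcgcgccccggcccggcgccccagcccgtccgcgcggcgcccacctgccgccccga
Dkk2: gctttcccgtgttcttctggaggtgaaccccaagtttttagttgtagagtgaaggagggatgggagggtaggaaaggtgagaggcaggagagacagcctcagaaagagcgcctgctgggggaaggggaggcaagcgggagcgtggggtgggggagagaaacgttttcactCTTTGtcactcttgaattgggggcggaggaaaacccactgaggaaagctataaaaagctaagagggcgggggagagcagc
Wif1: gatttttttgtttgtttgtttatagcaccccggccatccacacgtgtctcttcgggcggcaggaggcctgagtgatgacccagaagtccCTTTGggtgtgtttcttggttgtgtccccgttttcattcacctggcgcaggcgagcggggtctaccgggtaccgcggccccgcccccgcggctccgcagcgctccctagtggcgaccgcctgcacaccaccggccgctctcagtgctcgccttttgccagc
Dkk2 held CTTTG once on the plus strand, beginning 80 bases before the start, and Wif1 once on the plus strand, beginning 161 bases before it. The Wnt4 window held none of these letters and was 85.2% G and C, against 55.6% for Dkk2 and 62.8% for Wif1. CTTTG occurred in 48.6% of all 32851 promoter windows and in 42.5% of the 40 windows of the 34 members with an entry, so the match is common and describes letters only.

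Across the set, Wif1, Dkk2, Fzd2 and Rspo3 had lower levels and Wnt4 had higher levels in both aged arrays than in both young arrays. No member passed the limma test after Benjamini-Hochberg adjustment over all probe sets, where 0 of 19572 probe sets (0%) passed. At an unadjusted p under 0.05 there were 5 members of 52 (9.62%), beside 7.35% of all probe sets; without aged replicate 2 there were 3. Of these, 1 was higher and 4 were lower in aged cells, beside 3.36% and 3.99% of all probe sets in those directions. Members at this threshold were thus about as frequent as probe sets in general. The 2 aged arrays did not overlap with the 2 young arrays for 25 members (48.1%), beside 36.6% of all probe sets. Of these 25, 11 were higher in aged cells (background 18.2%) and 14 lower (background 18.4%). An exact permutation test of 2 against 2 arrays cannot give a two-sided p below 0.333. The median difference of the 52 members was 0.04, and that of all probe sets was 0. In bulk samples, fewer cells of a type and less RNA per cell cannot be told apart.

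**Figure D1:**
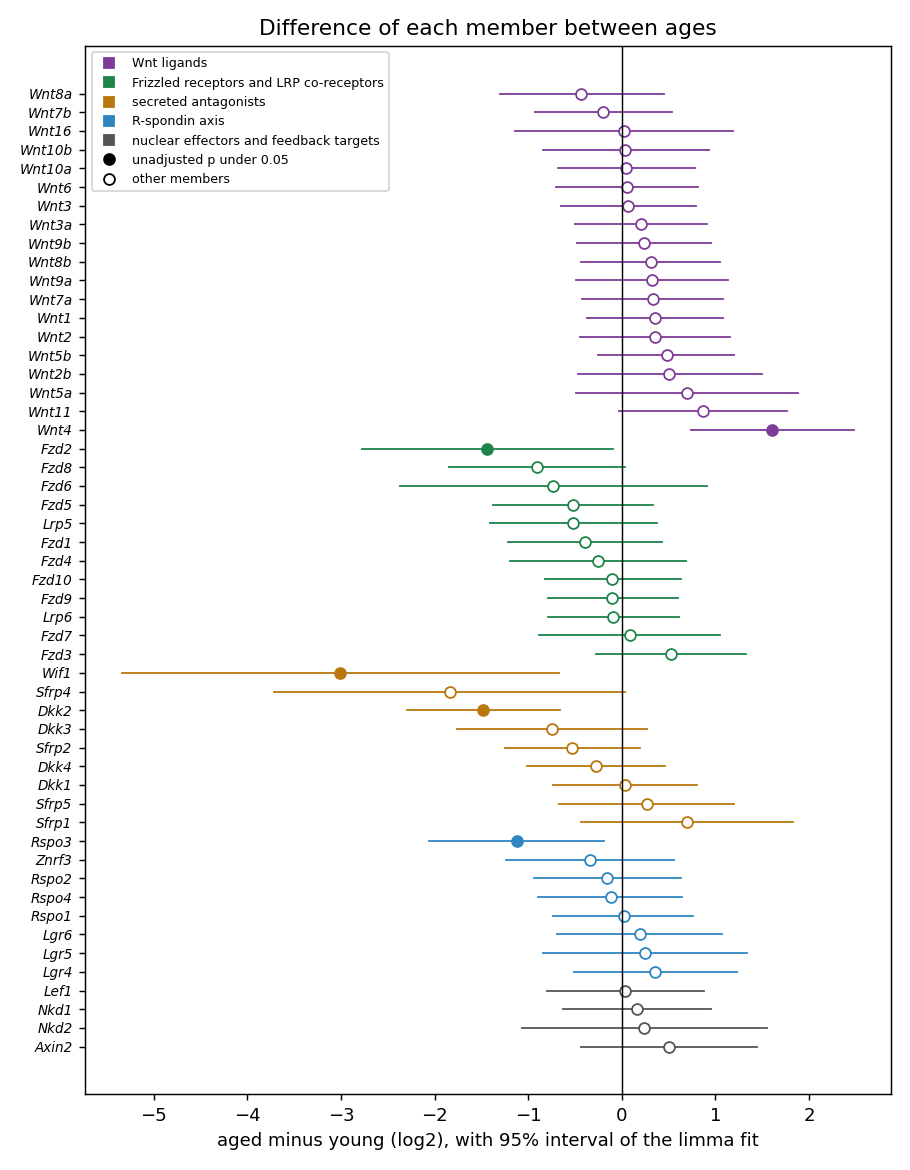
Aged minus young difference (log2, x axis) of each of the 52 members, grouped by role, with the 95% interval of the limma fit over 2 aged and 2 young arrays; filled points had an unadjusted p under 0.05. Among ligands 17 of 19 points lie above 0, among receptors and co-receptors 10 of 12 lie below 0, and the filled points are Wnt4, Fzd2, Wif1, Dkk2 and Rspo3.

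The arrays themselves differed in ways that touch these values. The separation of positive from negative control probe sets (the area under the curve) was 0.792 and 0.819 on the aged arrays and 0.849 and 0.823 on the young. Negative control medians were 6.76 and 6.68 on the aged arrays and 6.25 and 6.62 on the young, with a median difference of 0.23 over 5222 such probe sets. The satellite cell markers included Itga7 and Itgb1, whose proteins were used for the sort. All 12 markers, Pax7 and Myf5 among them, lay above the negative control median on all 4 arrays. So did all 10 fibroblast and all 9 pericyte markers, so the sorted samples carried transcripts known from other cells of muscle. The satellite cell markers averaged 11.82 and 12.22 on the aged arrays and 12.78 and 11.70 on the young. Of the 12, 1 (Myod1, -1.16) was lower in aged cells at an unadjusted limma p under 0.05 (8.33%, background 3.99%), and 0 were higher. Members differed between the 2 aged arrays by a median of 0.51 and between the 2 young arrays by 0.29, where all genes differed by 0.36 in both.

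The Wnt ligands had low readings and small positive differences. Of 19 ligands, 15 were below the negative control median on all 4 arrays. Only Wnt7a was above it on all 4, narrowly on replicate 2 of each age. Over all genes 41% were below it on all arrays and 45.6% above it. Differences were positive for 17 ligands, with a median of 0.31 and a range from -0.43 to 1.61. The groups did not overlap for 10 ligands, all higher in aged arrays (52.6%, beside 18.2% of all probe sets in that direction and 20.7% of those below the controls on all 4 arrays). Among the 15 ligands below the controls, 13 had positive differences, with a median of 0.21. Of all 8029 probe sets below the controls on every array, 56.9% had positive differences, with a median of 0.05. The negative controls moved the same way by 0.23, and their part in the ligand values was not tested.

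**Figure D2:**
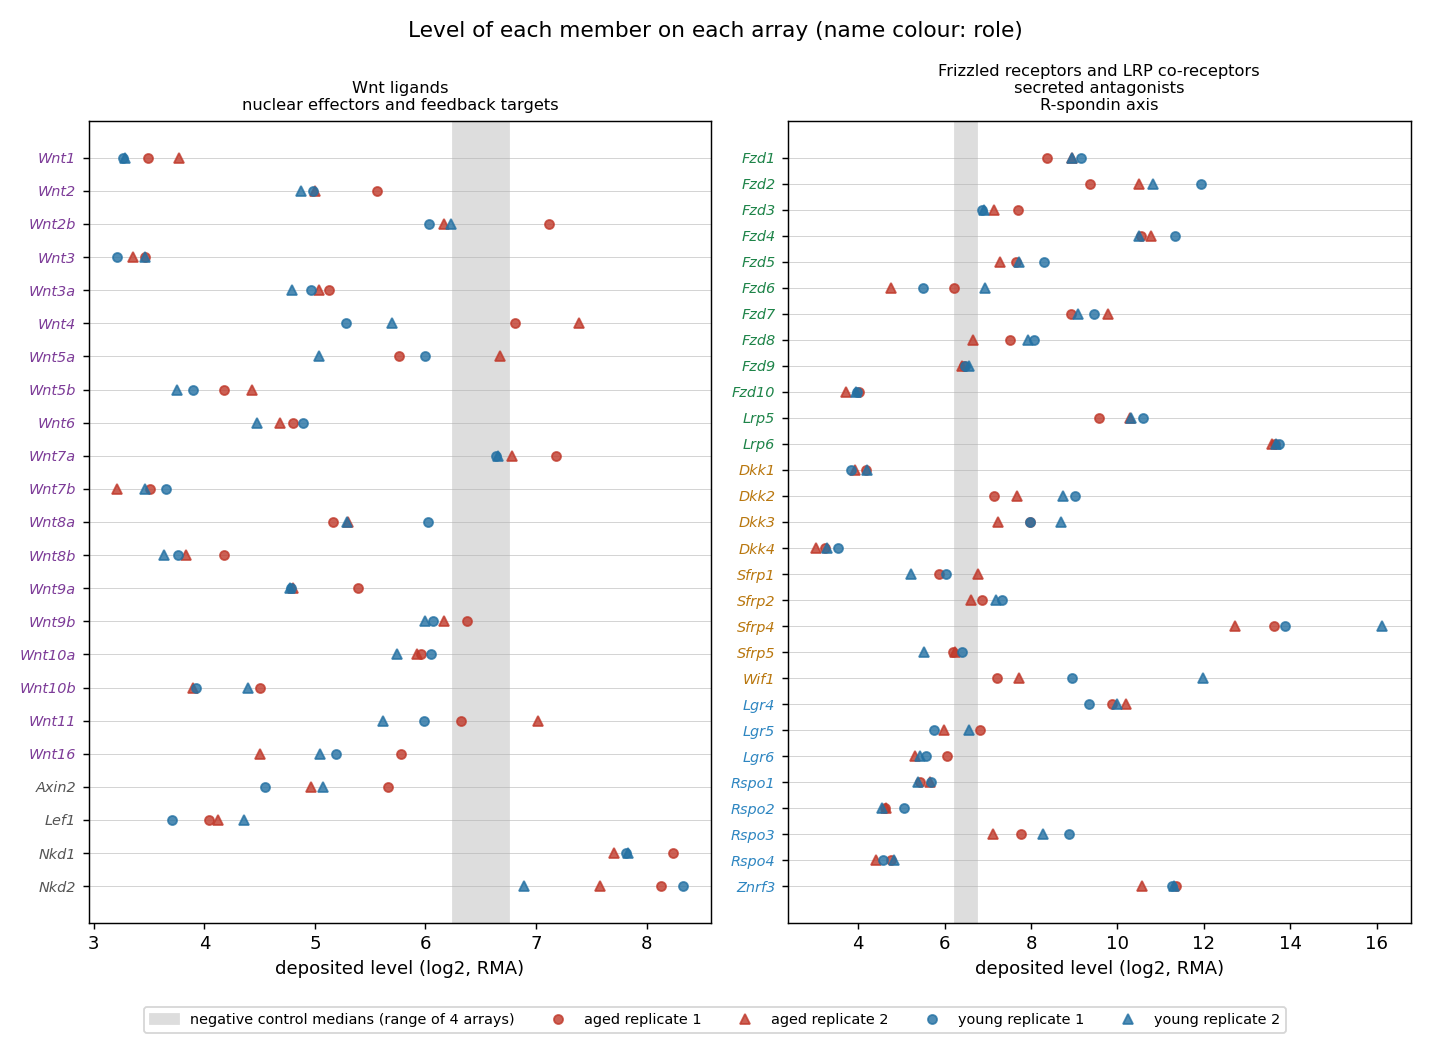
Deposited log2 level (x axis) of each member on each of the 4 arrays, with ligands and feedback genes at left and receptors, antagonists and the R-spondin genes at right; the grey band spans the negative control medians of the 4 arrays, 6.25 to 6.76. Levels of different genes are read by different probes and are not comparable with each other; most ligand points lie left of the band, and the Wif1 and Sfrp4 points of young replicate 2 lie to the right of the other arrays.

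Wnt4, a ligand that can act with or without beta-catenin, had the largest positive difference of the 52 members. Its level was 6.81 and 7.39 on the aged arrays and 5.28 and 5.70 on the young. Both aged readings were above the negative control median and both young readings were below it, so the size of the difference is uncertain. Group means were 7.10 ± 0.41 (SD, n = 2) and 5.49 ± 0.30 (SD, n = 2), and the difference was 1.61 ± 0.35 (SE; 95% interval 0.74 to 2.48). Its unadjusted p in limma was 0.00413 and its adjusted p 0.465. Leaving out each array in turn gave 1.32 to 1.90.

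Wnt11 and Wnt5a, ligands best known for signalling without beta-catenin, came next. Wnt11 was read at 6.32 and 7.02 on the aged arrays and 5.99 and 5.62 on the young, a difference of 0.87 ± 0.36 (SE) with an unadjusted limma p of 0.0568. The aged arrays were the higher ones, but 3 of the 4 readings were below the negative control median. Wnt5a was read at 5.76 and 6.67 on the aged arrays and 6.00 and 5.04 on the young. These groups overlapped, and the difference was 0.70 ± 0.48 (SE). All 4 Wnt5a readings were below the negative control median, that of aged replicate 2 narrowly, so they may be background. With each array left out in turn, the Wnt11 difference ran from 0.51 without aged replicate 2 (unadjusted limma p of 0.260) to 1.22 without aged replicate 1 (0.0320). The Wnt5a difference ran from 0.22 without young replicate 2 and 0.24 without aged replicate 2 to 1.18 without young replicate 1.

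Wnt7a, the ligand known to expand satellite cells through Fzd7, was read at 7.18 and 6.78 on the aged arrays and 6.64 and 6.66 on the young. The aged arrays were higher by a small margin, with a difference of 0.33 and a 95% interval of -0.42 to 1.08. Negative control medians were 6.68 on aged replicate 2 and 6.62 on young replicate 2, so Wnt7a was only just above them there. Wnt2b was read at 7.12 in aged replicate 1 and at 6.17, 6.03 and 6.23 in the other arrays. Its high reading was thus in 1 array alone, the only one with Wnt2b above the negative control median. Wnt3a, a ligand that stabilises beta-catenin, was at 5.13 and 5.04 on the aged arrays and 4.96 and 4.79 on the young, and Wnt10a was at 5.96 and 5.92 against 6.05 and 5.74. All of these Wnt3a and Wnt10a readings were below the negative control median, so they may be background.

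Receptors and co-receptors were mostly read above the controls, and their differences were mostly negative. Of 12 genes, 8 were above the negative control median on all 4 arrays. Differences were negative for 10, with a median of -0.32 and a range from -1.44 to 0.53. The groups did not overlap for 8 of them, of which 7 were lower and 1, Fzd3, was higher in aged arrays (0.53). For most of the 7 the nearest aged and young readings almost touched. These were Fzd1 (8.95 and 8.95), Lrp5 (10.30 and 10.31), Lrp6 (13.64 and 13.66), Fzd9 (6.44 and 6.46) and Fzd5 (7.66 and 7.71). The gap was wider for Fzd2 (10.51 and 10.82) and Fzd8 (7.52 and 8.06). Separate groups were found for 36.6% of all probe sets, 18.4% in the lower direction, and for 22.1% in that direction among probe sets above the controls on all arrays. Fzd2 was the 1 receptor at an unadjusted p under 0.05 (8.33% of the 12, beside 3.99% of all probe sets in the lower direction).

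Fzd2, a receptor for several Wnt ligands, was read at 9.37 and 10.51 on the aged arrays and 11.93 and 10.82 on the young. Aged replicate 2 and young replicate 2 lay close together, and replicate 1 of each age lay farther out. The difference was -1.44 ± 0.55 (SE; 95% interval -2.78 to -0.09; limma p of 0.0399, adjusted 0.654). Leaving out aged replicate 1 gave -0.87 (unadjusted limma p of 0.201) and leaving out young replicate 1 gave -0.88 (0.161). Fzd8 was read at 7.52 and 6.65 on the aged arrays and 8.06 and 7.93 on the young, a difference of -0.91 ± 0.38 (SE) and an unadjusted limma p of 0.0554. Leaving out aged replicate 1 gave -1.35 and leaving out aged replicate 2 gave -0.48. The Fzd8 reading of aged replicate 2 was just below the negative control median of that array (6.68), so the size is uncertain. Fzd6 was read at 6.21 and 4.75 on the aged arrays and 5.49 and 6.93 on the young, so its groups overlapped. Only its young replicate 2 reading was above the negative control median.

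Fzd7, the receptor of Wnt7a on satellite cells, was at 8.93 and 9.78 on the aged arrays and 9.45 and 9.08 on the young. Both young readings lay between the aged ones, so the groups overlapped, and the 95% interval of the difference ran from -0.88 to 1.05. Fzd4 was at 10.55 and 10.77 on the aged arrays and 11.33 and 10.49 on the young, again with overlap. Fzd1 was at 8.36 and 8.95 on the aged arrays and 9.15 and 8.95 on the young, a difference of -0.39 ± 0.33 (SE). Aged replicate 1 was the low array, and without it the difference was -0.10.

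The 4 readings of the co-receptor Lrp6 were close together. It was read at 13.64 and 13.57 on the aged arrays and 13.73 and 13.66 on the young, and its difference of -0.09 had a 95% interval of -0.79 to 0.61. Lrp5 was read at 9.58 and 10.30 on the aged arrays and 10.60 and 10.31 on the young, a difference of -0.52 ± 0.36 (SE). Its aged replicate 1 was the low array and the other 3 lay close together; without it the difference was -0.15.

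The secreted antagonists held the largest negative differences. Of 9 genes, 6 had negative differences and all 6 had groups that did not overlap, beside 18.4% of all probe sets in that direction. For Dkk3 the nearest aged and young readings were 7.97 and 7.98, and for Dkk4 they were 3.24 and 3.28. Dkk4 was below the negative control median on all 4 arrays, so it may be background. The median over the 9 was -0.53 and the range -3.01 to 0.70. Wif1 and Dkk2 were at an unadjusted p under 0.05, both lower in aged cells (22.2%, beside 3.99% of all probe sets in that direction). Sfrp1, Sfrp5 and Dkk1 had positive differences with overlapping groups.

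Wif1, an inhibitor that binds Wnt ligands directly, was read at 7.22 and 7.71 on the aged arrays and 8.95 and 11.99 on the young. Both young arrays were higher, and young replicate 2 lay well above young replicate 1. The difference was -3.01 ± 0.95 (SE; limma p of 0.0200, adjusted 0.593). Leaving out young replicate 2 gave -1.49 and leaving out young replicate 1 gave -4.53, so the size rests on which young array is used. The unadjusted limma p was above 0.05 without aged replicate 1 (0.0882) and without aged replicate 2 (0.0559).

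Sfrp4, a secreted Frizzled-related protein of connective tissue, was likewise highest in young replicate 2. It was read at 13.62 and 12.73 on the aged arrays and 13.89 and 16.13 on the young. Young replicate 2 was the high array and young replicate 1 lay just above aged replicate 1. The difference of -1.83 ± 0.76 (SE) had an unadjusted limma p of 0.0539. Leaving out young replicate 2 gave -0.71 and leaving out young replicate 1 gave -2.95, so the size rests on which young array is used.

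Young replicate 2 also stood apart in endothelial markers. The mean level of the 8 endothelial markers was 9.86 there, against 7.10 in young replicate 1 and 6.72 to 7.76 in aged arrays. Cldn5, a tight junction gene of vessels, was at 12.43 there and at 7.68, 6.49 and 6.76 in the aged arrays and young replicate 1. The list was uneven: 6 of the 8 markers were highest in young replicate 2, whereas Tek was highest in aged replicate 1 (10.86, against 10.52 in young replicate 2) and Esam was at 6.36 to 6.49 throughout. Only 2 of the 8, Cdh5 and Tek, were above the negative control median on all arrays. Fibroblast markers (10 genes) averaged 13.38 to 13.52 in aged and 14.27 to 14.58 in young arrays. Of the 10, the 3 collagen genes Col1a1, Col1a2 and Col3a1 were lower in aged cells at an unadjusted p under 0.05 (30%, background 3.99%). These 3 were higher in young replicate 1 than in young replicate 2. The rest of the list was higher in young replicate 2, among them Pi16 (13.68, against 10.74 in young replicate 1) and Mfap5 (16.00, against 14.61). Tendon markers (8 genes) averaged 9.38 to 9.39 in aged and 9.96 to 10.42 in young arrays, with 2 lower at an unadjusted p under 0.05 (25%, background 3.99%). The part of these cells in the Wif1 and Sfrp4 values was not tested.

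**Figure D3:**
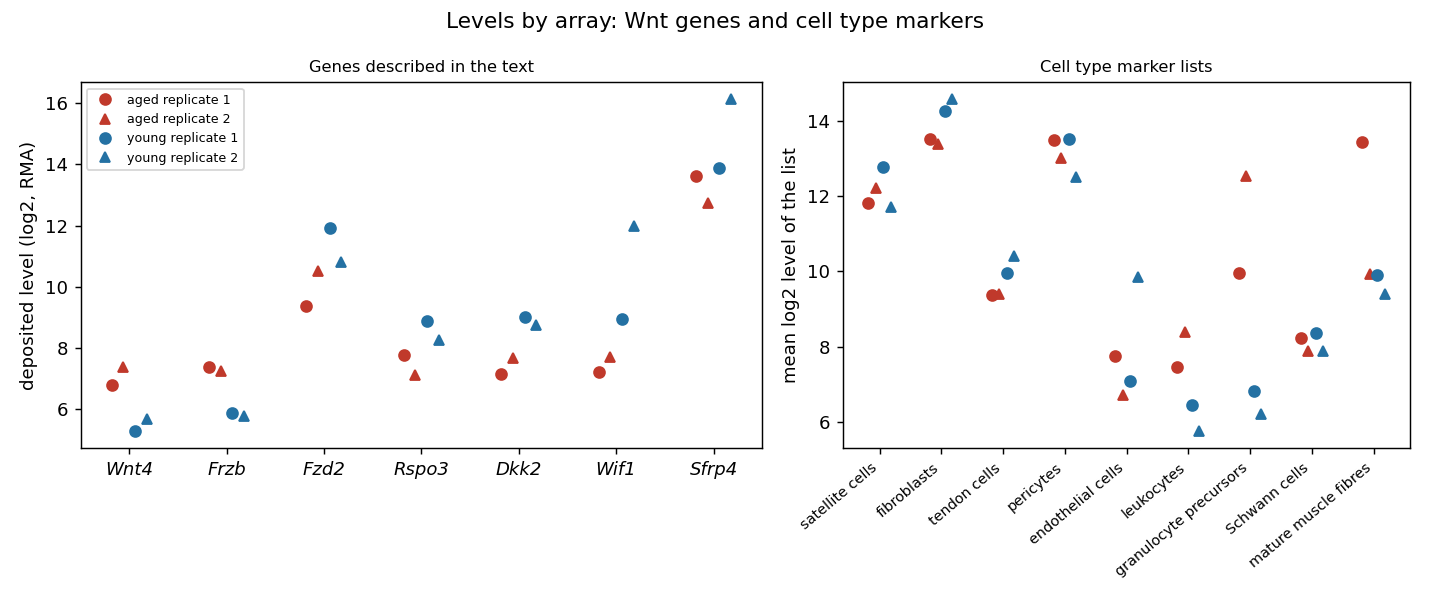
Deposited log2 level (y axis) of 7 genes on each array at left, and mean log2 level of each cell type marker list on each array at right. Wif1, Sfrp4 and the endothelial list are highest in young replicate 2, the fibre list is highest in aged replicate 1 (13.43), and the leukocyte and granulocyte lists are higher in both aged arrays.

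Dkk2, a co-receptor ligand of the Dickkopf family, had a more even pattern. It was read at 7.14 and 7.67 on the aged arrays and 9.01 and 8.75 on the young. The young arrays lay close together and well above both aged arrays, and all 4 readings were above the negative control median. Group means were 7.40 ± 0.38 (SD, n = 2) and 8.88 ± 0.18 (SD, n = 2), a difference of -1.48 ± 0.33 (SE; limma p of 0.00455, adjusted 0.465). Leaving out each array in turn gave -1.74 to -1.21, with an unadjusted limma p under 0.05 each time. At that threshold 3 of 10 fibroblast and 2 of 8 tendon markers were lower too (background 3.99%). Differences were negative for 9 of the 10 fibroblast markers (median -0.58) and 7 of the 8 tendon markers (median -0.36). Over all genes they were negative for 9788 of 19505. Dcn (-0.05), Gsn (-0.03) and Comp (-0.01) were the markers that differed least. The part of these cells in the Dkk2 values was not tested.

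Dkk3, a divergent family member, was read at 7.97 and 7.23 on the aged arrays and 7.98 and 8.70 on the young, a difference of -0.74 ± 0.41 (SE) with aged replicate 1 and young replicate 1 nearly equal. It ran from -1.11 without aged replicate 1 to -0.38 without aged replicate 2 or young replicate 2. Sfrp2, an antagonist made by fibroblasts, was read at 6.87 and 6.60 on the aged arrays and 7.33 and 7.19 on the young. Its groups were apart, but the difference of -0.53 had a 95% interval of -1.25 to 0.20. The Sfrp2 reading of aged replicate 2 was below the negative control median. Sfrp1 was read at 5.86 and 6.78 on the aged arrays and 6.03 and 5.21 on the young, so aged replicate 2 was the high array and the groups overlapped. Its difference of 0.70 was 0.24 without that array, the only one with Sfrp1 above the negative control median. Dkk1 and Dkk4 were below the negative control median on all arrays.

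Among the R-spondin genes and their receptors, Rspo3 alone had groups that did not overlap (12.5%, beside 36.6% of all probe sets). Of the 8 genes, 4 had positive and 4 negative differences, with a median of -0.05. Rspo3, a secreted enhancer of Wnt signalling, was read at 7.77 and 7.13 on the aged arrays and 8.87 and 8.28 on the young. All 4 readings were above the controls, and the lower young array was above the higher aged array. The difference was -1.12 ± 0.38 (SE; 95% interval -2.06 to -0.19; limma p of 0.0264, adjusted 0.605). Leaving out aged replicate 2 gave -0.80 (unadjusted limma p of 0.134), and leaving out young replicate 1 gave -0.83 (0.118).

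Rspo1, Rspo2, Rspo4 and Lgr6 were below the negative control median on all 4 arrays. Rspo1, which can act on satellite cells through Lgr4, was at 5.43 and 5.67 on the aged arrays and 5.68 and 5.39 on the young. The receptor Lgr4 was at 9.88 and 10.20 on the aged arrays and 9.35 and 10.00 on the young, with overlap and a difference of 0.36 ± 0.35 (SE). Lgr5, a stem cell marker in several tissues, was at 6.82 and 5.99 on the aged arrays and 5.75 and 6.56 on the young. Only its aged replicate 1 reading was above the negative control median. The ligase gene Znrf3 was at 11.35 and 10.56 on the aged arrays and 11.27 and 11.32 on the young, where aged replicate 2 was the low array. The groups overlapped for Lgr4, Lgr5 and Znrf3, and none of them was past either threshold.

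The feedback and effector genes, whose transcription is a usual readout of beta-catenin activity, had no member past either threshold and no member with separate groups. Of all probe sets, 7.35% were at an unadjusted p under 0.05 and 36.6% had separate groups. All 4 differences were positive, from 0.04 to 0.50, with a median of 0.20. Axin2, a scaffold of beta-catenin breakdown and a direct target, was read at 5.66 and 4.96 on the aged arrays and 4.55 and 5.07 on the young. All of these readings were below the negative control median, and the 95% interval of its difference ran from -0.44 to 1.44. Lef1 was also below it on every array, at 4.04 and 4.12 on the aged arrays and 3.71 and 4.36 on the young. The Dishevelled antagonists Nkd1 and Nkd2 were above it. Nkd1 was at 8.24 and 7.71 on the aged arrays and 7.81 and 7.83 on the young. Nkd2 was at 8.13 and 7.58 on the aged arrays and 8.33 and 6.89 on the young, so the young readings enclosed the aged ones.

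**Figure D4:**
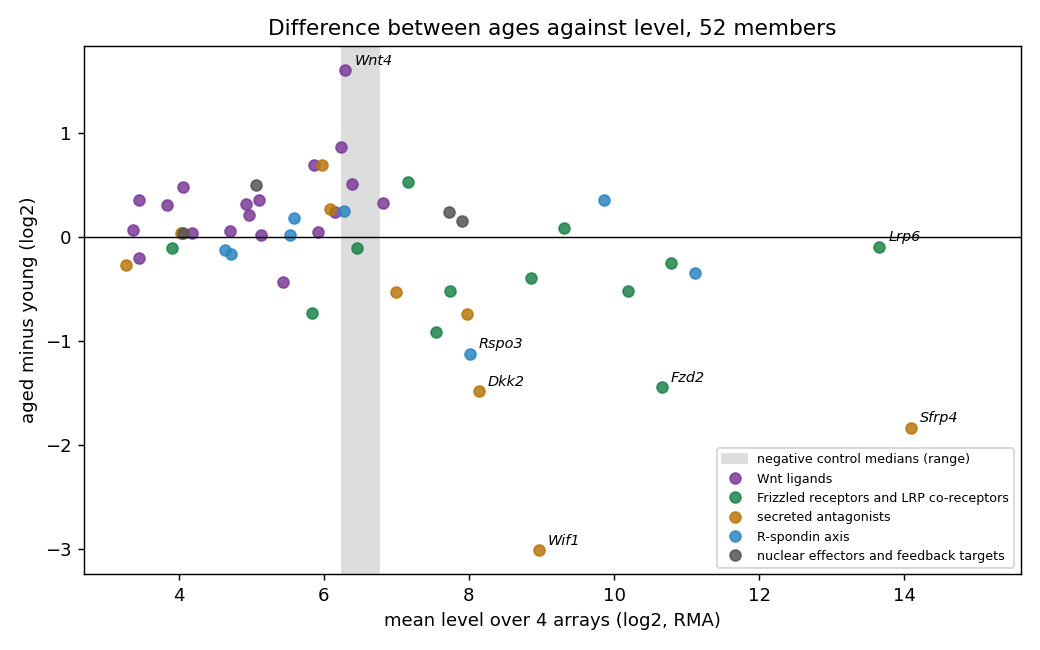
Aged minus young difference (log2, y axis) against the mean level over the 4 arrays (log2, x axis) of the 52 members, coloured by role; the grey band spans the negative control medians. Ligands lie mostly left of the band with small positive differences, and Rspo3, Dkk2, Fzd2, Wif1 and Sfrp4 lie right of it with negative differences.

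Other genes of the pathway were read from a list chosen by role, of which 69 were measured. At an unadjusted p under 0.05 there were 8 (11.6%), with 5 higher (background 3.36%) and 3 lower (background 3.99%) in aged cells; without aged replicate 2 there were 5. None passed in limma after adjustment, and the median difference was 0.08. The groups did not overlap for 26 of the 69 (37.7%), near the 36.6% of all probe sets.

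Frzb, also known as Sfrp3, is an antagonist outside the naming pattern of the set and had a difference of the opposite sign to that of Sfrp4. It was read at 7.40 and 7.24 on the aged arrays and 5.87 and 5.77 on the young. The arrays of an age lay close together, and both young readings were below the negative control median, so the size of the difference is uncertain. The difference was 1.49 ± 0.29 (SE; limma p of 0.00218, adjusted 0.452), and it was 1.42 to 1.57 when each array was left out in turn.

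Within the cytoplasmic core of 14 genes, 1 was higher (background 3.36%) and 2 were lower (background 3.99%) in aged arrays at an unadjusted p under 0.05. Together they were 21.4% of the core, beside 7.35% of all probe sets and 10% of those above the controls on all arrays. Csnk1d, a kinase that acts on Dishevelled and other pathway proteins, was read at 14.71 and 14.51 on the aged arrays and 12.95 and 13.47 on the young, a difference of 1.41 ± 0.33 (SE). Apc, a scaffold of beta-catenin breakdown, was read at 7.52 and 7.25 on the aged arrays and 8.11 and 8.54 on the young, a difference of -0.95 ± 0.32 (SE). Tnks2, a tankyrase that marks Axin for breakdown, differed by -0.75 ± 0.30 (SE; limma p of 0.0491). The glypican gene Gpc6, a surface proteoglycan, differed by -0.80 ± 0.30 (SE). With each array left out in turn, Apc ran from -1.16 to -0.73, and its unadjusted limma p was above 0.05 without aged replicate 1, aged replicate 2 or young replicate 2. Tnks2 (-0.92 to -0.58) and Gpc6 (-0.92 to -0.68) were above 0.05 with any array left out.

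Among 11 genes listed as targets in other tissues, 3 were at an unadjusted p under 0.05 and all were higher in aged cells, beside 3.36% of all probe sets in that direction. Fosl1, a subunit of the AP-1 transcription factor, was read at 11.25 and 11.50 on the aged arrays and 9.96 and 9.90 on the young, a difference of 1.45 ± 0.29 (SE; limma p of 0.00277, adjusted 0.452). Ccn4, a secreted matrix protein also called Wisp1, differed by 1.01 ± 0.37 (SE), and by 0.62 without young replicate 1. Its reading on that array, 6.14, was below the negative control median of 6.25, so the size of the difference is uncertain. The adhesion receptor gene Cd44 differed by 0.81 ± 0.32 (SE) and was at 13.05 and 12.97 on the aged arrays and 11.96 and 12.44 on the young. The unadjusted limma p of Ccn4 and Cd44 was above 0.05 without aged replicate 1, aged replicate 2 or young replicate 1, with Cd44 between 0.57 and 1.05 over the arrays left out. These genes are known to answer to other pathways too, and are no measure of Wnt signalling alone.

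Markers of blood cells, like Wnt4, Frzb, Fosl1 and Cd44, were mostly higher in the aged arrays. The 11 leukocyte markers averaged 7.47 to 8.40 in aged and 5.75 to 6.45 in young arrays. Of these, 5 (45.5%) were higher in aged cells at an unadjusted p under 0.05, beside 3.36% of all probe sets in that direction. The 9 granulocyte markers averaged 9.95 to 12.53 in aged and 6.22 to 6.83 in young arrays, with 8 (88.9%) higher at that threshold. Of the leukocyte markers, Csf1r and Itgam were below the negative control median on all 4 arrays. The 10 markers of mature fibres averaged 13.43 in aged replicate 1 and 9.41 to 9.92 in the other arrays. The part of these cells in the values was not tested.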

How the data were processed

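Muscle progenitor cells of 2 ages were profiled, with 2 arrays per age. The log2 levels of 28846 entries were deposited by the authors as 1 table. It was made with RMA and the Transcriptome Analysis Console, per the submitters' processing notes. The sources used here give no versions and no genome build. The highest deposited log2 value was 19.4, which a plain scan seldom reaches, so a variant of RMA is possible and differences are not written as folds. The platform annotation named 19572 probe sets with 1 gene symbol each and none with several; 9274 entries without a symbol were left out.

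The ages were tested in R 4.3.3 with limma 3.58.1 (lmFit, eBayes, two-sided, group as the only term) on the 19572 probe sets, with Benjamini-Hochberg adjustment over all of them and a threshold of 0.05, after a test on simulated data. The number of arrays limits the precision. Control probe sets were read as negative (5222) or positive (1324) from their names.

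The members and lists were chosen with earlier results of these data known. Members given by value were those at an unadjusted p under 0.05, the 3 of each role with the highest level and the 3 with the largest difference, and genes of prior interest in muscle ageing. Alternatives were other scalings, a variance prior with a trend, dropping dim probe sets, the replicate block, each array left out, every entry and averaged probe sets.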

Additional observations from a re-analysis of the deposited data

How the results depend on the processing

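No member passed after adjustment in limma under any of the 11 alternatives; at an unadjusted p under 0.05 there were 5 in the main analysis, and 4 to 7 across the alternatives that kept every array. Wnt4 and Dkk2 kept an unadjusted limma p under 0.05 in every alternative that tested them; Wnt4 was not tested without dim probe sets. Leaving out each array gave 3 to 5 members at that p (3 without aged replicate 2), 37 to 41 with separate groups (fewer arrays overlap less often), a median difference of -0.10 to 0.09, and 5 to 8 other pathway genes. Without dim probe sets, 20 members were tested, of which 14 had separate groups, with a median difference of -0.46, and 4 other pathway genes were at that p. Of all 8926 probe sets above the controls on every array, 16.8% had separate groups in the higher and 22.1% in the lower direction. Their median difference was -0.06. The share of all probe sets with separate groups was not counted without dim probe sets or with an array left out. Other pathway genes at an unadjusted p under 0.05 numbered 5 with every entry of the table. Same-numbered arrays did not deviate together (correlation of -0.051), so the numbers were not taken as pairs. With the replicate block 2 probe sets passed after adjustment, Elane and Mpo, and 5 other pathway genes were at an unadjusted p under 0.05; Fzd2 then had a limma p of 0.0540. Leaving out each array gave 0 to 1 such probe sets, the 1 being Kit without young replicate 2.

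Among the 38 genes tracked, 16 of 405 values changed sign, all in genes with small differences. Wnt10a was -0.01 after quantile normalization, and Rspo1 was -0.05 then and -0.02 after median centring. With each array left out the range was -0.67 to 0.17 for Fzd4, -0.74 to 0.06 for Znrf3, -0.10 to 0.43 for Nkd1 and -0.47 to 0.96 for Nkd2. It was -0.11 to 0.20 for Wnt10a, -0.34 to 0.51 for Fzd7, -0.13 to 0.16 for Rspo1, -0.17 to 0.67 for Lgr5 and -0.28 to 0.36 for Lef1. The cause of these changes was not tested. Readings below the negative control median, among them 15 of 19 ligands, limit what can be said of level or size.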

Other observations

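Of 13 measured genes of planar polarity and of the alternative Wnt receptors, 0 were at an unadjusted limma p under 0.05 and 0 after adjustment, with a median difference of 0.17 and a range from -0.38 to 1.42. Ror1, a receptor of Wnt5a named here after its values were seen, was read at 8.40 and 10.59 on the aged arrays and 8.67 and 7.48 on the young, a difference of 1.42 ± 0.78 (SE); aged replicate 2 was the high array and the groups overlapped. The 12 nuclear co-factors were all above the negative control median on every array, with 0 at an unadjusted limma p under 0.05 and a median difference of 0.31. Tcf7l2, also named after its values were seen, was read at 10.16 and 11.47 on the aged arrays and 9.95 and 10.02 on the young.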
